A study of Mus musculus with 8 samples.

Results

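The unfolded protein response and its endoplasmic reticulum (ER) chaperones were followed as a named group of 33 genes in mouse colon cancer organoids grown with and without epidermal growth factor (EGF). The group was a fixed list of names: ER chaperones and their partners, protein disulphide isomerases, stress sensors with their effectors, genes of ER-associated degradation and parts of the translocon. All 33 were found among the 32728 genes of the count table, and all 33 were among the 16719 genes abundant enough to be tested. The rule that gives the list uses names and no measured value, but the list was made with earlier results of these data known.

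The organoids were APS colon cancer organoids of C57BL/6 origin that carried CRISPR knockouts of Apc, Trp53 and Smad4, and every library came from cells with these knockouts, so there was no wild-type control against which the knockouts could be checked. RNA was sequenced from 2 lines, of which apsMC706 is labelled female and CTO19 male. EM was the control medium with B27, noggin, galunisertib (an inhibitor of the TGF-beta receptor) and EGF, with RNA taken after 3 days, and noEGF was the same culture without EGF for 7 days. Each of the 4 groups held 2 libraries of 35650262 to 38953838 counts, and the labels do not say whether the 2 came from separate cultures, so p-values measure the spread between these libraries. Medium and days in culture cannot be told apart, and neither can line and labelled sex.

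Secretory and membrane proteins enter the ER through the translocon and fold there with the help of chaperones, of which BiP (Hspa5) is the best known. When unfolded proteins build up, sensors in the ER membrane (IRE1, ATF6 and PERK) respond: IRE1 splices the Xbp1 mRNA, ATF6 is cut to release a transcription factor, and PERK phosphorylates eIF2alpha to slow translation. These arms raise the genes of chaperones, disulphide isomerases and ER-associated degradation, and in the gut they are best known from secretory cells, which handle a large load of mucins and other secreted proteins. Much of the control acts on proteins and on splicing, and gene counts do not separate spliced from unspliced Xbp1 mRNA.

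Removal of EGF was followed by opposite changes of the ER chaperones in the 2 lines. In apsMC706, 25 of the 33 genes were higher and 5 lower in noEGF than in EM, 30 in all (edgeR quasi-likelihood test, Benjamini-Hochberg adjusted p under 0.05), where 67.2% of all tested genes were called in either direction, 34.1% higher and 33.1% lower. In CTO19 the direction turned: 8 were higher and 20 lower, 28 in all, beside 68.0% of all genes called, 34.7% higher and 33.3% lower. The median log2 fold change of the group was 0.30 in apsMC706 and -0.26 in CTO19, while that of all tested genes was 0.0009 and 0.02. The share of all counts that fell in the 33 genes was 0.728% and 0.724% in the EM libraries of apsMC706 and 0.977% and 0.981% in its noEGF libraries. In CTO19 it was 0.664% and 0.682% in EM and 0.558% and 0.543% in noEGF. The 4 noEGF libraries thus lay on either side of the 4 EM libraries, those of apsMC706 above and those of CTO19 below. In bulk RNA, fewer cells of a type and less RNA per cell cannot be told apart.

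The difference between the responses was tested directly. It passed for 28 of the 33 genes, of which 26 had a lower response in CTO19 and 2, Ern1 and Ern2, a higher one, where 56.0% of all genes passed, 25.6% with a lower and 30.4% with a higher response in CTO19. The median difference (CTO19 minus apsMC706) was -0.57 on the log2 scale, against 0.06 for all tested genes. The 5 genes whose responses did not pass as different were Dnajb11, Sel1l, Syvn1, Derl2 and Sec61b, of which Sec61b passed under some other settings. A set of 13 genes rose in apsMC706 and fell in CTO19: Hspa5, Hsp90b1, Hyou1, Dnajc3, Sdf2l1, Manf, Creld2, Calr, Pdia3, Pdia4, Pdia6, P4hb and Derl1. Of all tested genes, 7.40% had that pattern. The set was defined after the values were seen, and it held 12 to 14 genes when 1 library at a time was left out.

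**Figure D1:**
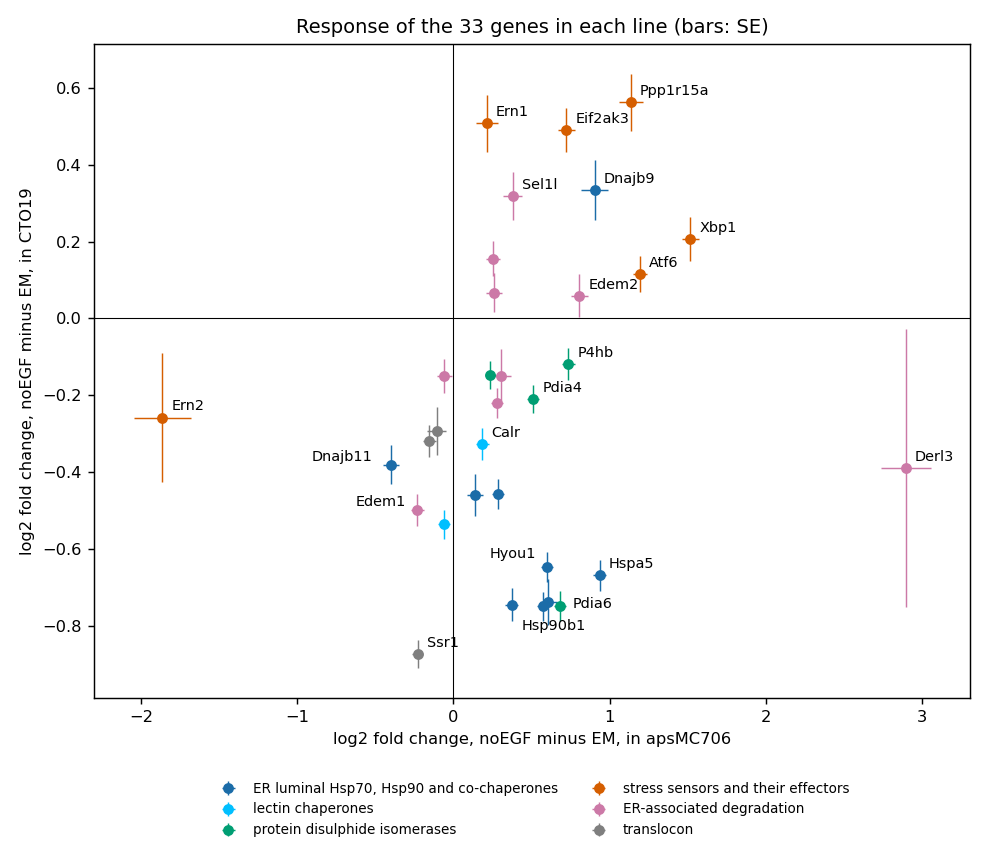
Each point is 1 of the 33 genes, with its log2 fold change (noEGF minus EM) in apsMC706 on the x axis and in CTO19 on the y axis, bars of 1 standard error (SE) and colours by role. The axes have different scales. The lower right area holds the 13 genes that rose in apsMC706 and fell in CTO19. It also holds Derl3 and Herpud1, whose lower values in CTO19 were not called. The stress sensors other than Ern2 lie in the upper right area.

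Letters of the promoters were examined because so many chaperones moved together. The ER stress element (ERSE, the letters CCAAT and CCACG with 9 free bases between them) and ERSE-II (ATTGG and CCACG with 1 free base between them) are known as sites through which ATF6 and XBP1 act with NF-Y, and the unfolded protein response element (UPRE, TGACGTGG) as a site for both factors. Each was searched on both strands in the 250 bases before the transcription starts of RefSeq (GRCm38.p6), which gave a window for 27 of the 33 genes and for 27025 genes in all. ERSE and ERSE-II share the CCACG end, and a match is a string of letters, not a measured binding site. ERSE was found for 9 of the 27 genes (33.3%) and for 0.13% of all genes, ERSE-II for 1 (Herpud1) and for 0.037%, and UPRE for none and for 0.603%. The genes were listed by name for the response whose known sites these are. The larger share among them therefore follows from the list and is no result of these data. Of the 10 windows from the set that rose in apsMC706 and fell in CTO19, 6 held an ERSE, and of the 17 other windows 3 did. With ERSE-II counted, 4 of the 17 held a match. The set was defined after the values were seen and holds many of the listed chaperones. Whether the motif bears on the pattern was not tested. Atf6, Derl1, Ern2, Hyou1, Manf and Sec61a1 had no window.

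The matches are printed 5' to 3' along the strand of the gene, with the fixed letters of the motif in capitals and 15 bases of context on each side, since they are what the printed genes share. For Hspa5 the match alone is given, since it lies in bases that GENCODE M21 annotates as exon: the GENCODE gene starts ahead of the RefSeq start from which the window was taken. An ERSE in the reverse direction reads CGTGG first and ATTGG last.
Hspa5 (chr2:34772025-34772043, forward): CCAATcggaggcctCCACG
Hsp90b1 (chr10:86705623-86705671, forward): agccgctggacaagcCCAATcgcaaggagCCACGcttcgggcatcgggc
Hsp90b1 (chr10:86705518-86705566, reverse): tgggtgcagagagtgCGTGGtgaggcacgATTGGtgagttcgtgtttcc
Dnajc3 (chr14:118937812-118937860, forward): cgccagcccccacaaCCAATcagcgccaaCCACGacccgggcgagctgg
Creld2 (chr15:88819505-88819553, reverse): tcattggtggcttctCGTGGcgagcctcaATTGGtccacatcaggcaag
Calr (chr8:84847060-84847108, reverse): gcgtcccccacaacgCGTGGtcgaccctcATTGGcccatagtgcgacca
Pdia6 (chr12:17266476-17266524, forward): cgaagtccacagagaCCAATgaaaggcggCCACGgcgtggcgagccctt
Canx (chr11:50325785-50325833, forward): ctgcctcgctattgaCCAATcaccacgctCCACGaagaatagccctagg
Syvn1 (chr19:6046517-6046565, forward): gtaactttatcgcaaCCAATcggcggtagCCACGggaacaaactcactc
Derl3 (chr10:75893227-75893275, reverse): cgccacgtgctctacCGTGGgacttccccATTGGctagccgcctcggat
Herpud1 (chr8:94386362-94386402, ERSE-II, forward): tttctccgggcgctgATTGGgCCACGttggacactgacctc

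Hsp90b1 was the only member with 2 matches, in opposite directions, and both lie in a stretch of 185 bases that ends next to its start (chr10:86705510-86705694, minus strand).
Hsp90b1 promoter: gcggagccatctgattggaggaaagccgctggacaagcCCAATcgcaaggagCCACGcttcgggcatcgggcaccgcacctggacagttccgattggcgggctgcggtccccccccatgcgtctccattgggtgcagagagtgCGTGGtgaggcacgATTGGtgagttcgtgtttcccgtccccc

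**Figure D2:**
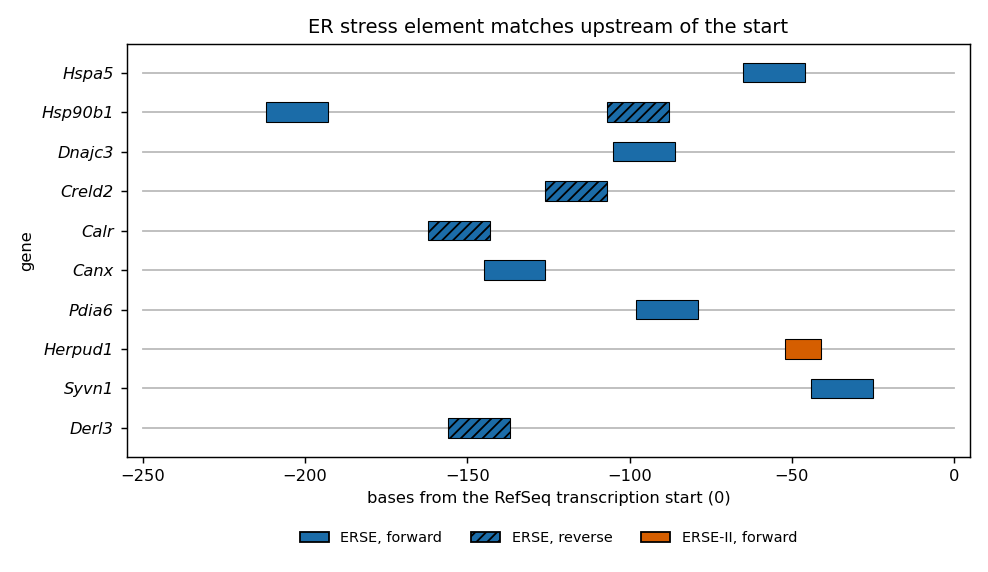
Positions of the ERSE and ERSE-II matches (bars) in the 250 bases before the RefSeq start of each gene, with 0 at the start and hatching for matches in the reverse direction. The 11 matches in 10 genes lie between 212 and 26 bases before the start.

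Among the luminal Hsp70 and Hsp90 chaperones and their partners, 7 of 9 genes rose in apsMC706 and fell in CTO19, Dnajb9 rose in both lines and Dnajb11 fell in both. Of all tested genes, 7.40% rose in apsMC706 and fell in CTO19, 17.1% rose in both lines and 18.5% fell in both. In apsMC706 their summed level was 2145 ± 2.82 in EM and 3339 ± 38.2 CPM (counts scaled to 1e6 per library, SD, n = 2) in noEGF. In CTO19 it was 2112 ± 52.7 and 1345 ± 41.4 CPM. The sums of the 2 lines were thus near each other in EM and apart in noEGF. Single genes were not all alike in EM. There 6 of the 9 differed between lines, 3 higher and 3 lower in CTO19, where 71.3% of all tested genes were called. Hspa5 (chr2:34771970-34777547), the ER Hsp70 BiP that binds unfolded chains and holds the sensors inactive, stood at 647 and 632 CPM in EM and 1241 and 1204 CPM in noEGF in apsMC706. In CTO19 it stood at 688 and 721 CPM in EM and 453 and 433 CPM in noEGF. It was 1.91-fold higher in apsMC706 (log2 fold change 0.93, SE 0.0404, adjusted p = 4.12e-11) and 1.59-fold lower in CTO19 (-0.67, SE 0.0404, adjusted p = 2.47e-09). The libraries of the 2 media did not overlap in either line, and the difference between responses, -1.60 (SE 0.0572, adjusted p = 3.28e-11), was the most negative of the group after that of Derl3.

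Hsp90b1 (chr10:86690209-86705509), the ER Hsp90 also called GRP94, was at 718 and 731 CPM in EM and 1080 and 1074 CPM in noEGF in apsMC706, and at 689 and 710 against 425 and 408 CPM in CTO19. It was 1.49-fold higher and 1.68-fold lower. The opposite changes left the 2 lines, whose EM levels did not pass as different, 2.59-fold apart in noEGF. Hyou1, an Hsp110-type exchange factor that recharges BiP, was at 343 and 341 CPM in EM and 521 and 516 CPM in noEGF in apsMC706, and at 272 and 280 against 181 and 171 CPM in CTO19. The folds were 1.52 upward and 1.57 downward. Sdf2l1, a partner of BiP and its J-proteins, was at 27.5 and 28.4 CPM in EM and 41.7 and 43.4 CPM in noEGF in apsMC706, and at 27.9 and 29.9 against 17.3 and 17.4 CPM in CTO19. Its EM libraries of the 2 lines overlapped, and its noEGF libraries lay on either side of them.

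Manf, a secreted stress-induced factor that binds BiP, was at 150 and 155 CPM in EM and 197 and 198 CPM in noEGF in apsMC706, and at 118 and 123 against 73.1 and 70.2 CPM in CTO19. It fell 1.68-fold in CTO19 and rose 1.30-fold in apsMC706. Dnajc3, an ER J-protein also called p58IPK, was at 125 and 121 CPM in EM and 152 and 148 CPM in noEGF in apsMC706, and at 122 and 121 against 88.5 and 88.4 CPM in CTO19. Creld2, a small ER protein induced by stress, was at 50.7 and 48.9 CPM in EM and 54.9 and 54.7 CPM in noEGF in apsMC706, and at 33.9 and 34.6 against 25.9 and 23.9 CPM in CTO19. Its rise in apsMC706 was the smallest of the 13 (1.10-fold, adjusted p = 0.0232) and was no longer called when any 1 of the 4 apsMC706 libraries was left out (adjusted p 0.0562 to 0.165). Its log2 fold change there was 0.14, against 0.22 with upper-quartile scaling and 0.23 without either CTO19 noEGF library.

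The J-proteins Dnajb9 and Dnajb11 behaved unlike the rest. Dnajb9 (ERdj4), which targets IRE1 and misfolded proteins, rose in both lines: it was at 8.86 and 9.97 CPM in EM and 18.8 and 16.5 CPM in noEGF in apsMC706, and at 18.1 and 17.1 against 22.4 and 22.0 CPM in CTO19. The rise was 1.87-fold in apsMC706 and 1.26-fold in CTO19, and these differed (-0.57, SE 0.115, adjusted p = 0.000663). Dnajb11 (ERdj3), a J-protein that hands substrates to BiP, fell 1.32-fold and 1.30-fold: it was at 77.2 and 76.7 CPM in EM and 59.9 and 56.9 CPM in noEGF in apsMC706, and at 107 and 115 against 88.4 and 82.0 CPM in CTO19. All noEGF libraries of Dnajb11 were below the EM libraries of their own line.

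**Figure D3:**
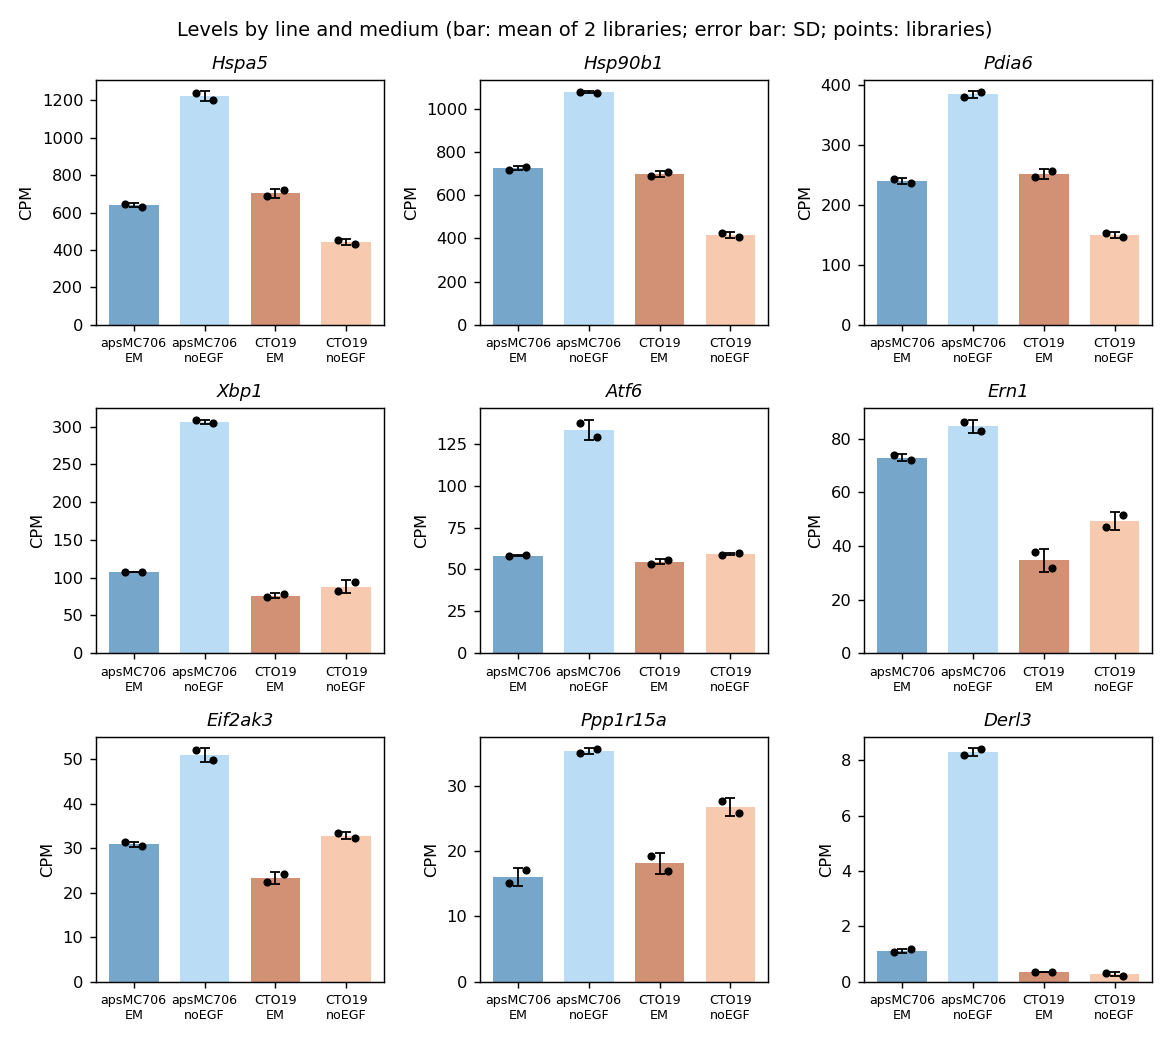
Levels in CPM of selected genes of the group in each of the 8 libraries (points) with the mean of the 2 libraries of a group (bars) and the SD (error bars), by line and medium. Hspa5 goes from 647 and 632 up to 1241 and 1204 CPM in apsMC706 and from 688 and 721 down to 453 and 433 CPM in CTO19.

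The lectin chaperones bind sugar-bearing chains in the calnexin cycle. Calreticulin (Calr), the soluble one, was at 688 and 680 CPM in EM and 776 and 779 CPM in noEGF in apsMC706, and at 775 and 791 against 648 and 601 CPM in CTO19. It rose 1.14-fold and fell 1.25-fold. Calnexin (Canx), the membrane-bound one, was at 911 and 897 CPM in EM and 873 and 863 CPM in noEGF in apsMC706, and at 770 and 783 against 549 and 523 CPM in CTO19. Canx fell 1.45-fold in CTO19 (adjusted p = 1.2e-08) and did not pass in apsMC706, and this difference in response passed the test (-0.48, SE 0.0531, adjusted p = 2.44e-06).

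All 4 protein disulphide isomerases, which make and shuffle disulphide bonds, rose in apsMC706 and fell in CTO19, a pattern that 7.40% of all tested genes had. Their summed levels were 1958 ± 31.8 and 2796 ± 15.1 CPM for apsMC706 and 1895 ± 39.3 and 1640 ± 52.9 CPM in CTO19 (EM and noEGF, SD, n = 2). Pdia6 was at 243 and 236 CPM in EM and 380 and 387 CPM in noEGF in apsMC706, and at 246 and 257 against 153 and 146 CPM in CTO19. Its difference in response (-1.43, SE 0.0562, adjusted p = 7.89e-11) was the largest of the 4. P4hb, the archetypal isomerase PDI, was at 749 and 729 CPM in EM and 1225 and 1234 CPM in noEGF in apsMC706, and at 667 and 695 against 649 and 606 CPM in CTO19. The 1.66-fold rise of P4hb in apsMC706 stood beside a 1.09-fold fall in CTO19 that was not called without CTO19 EM replicate 2 or CTO19 noEGF replicate 2 (adjusted p 0.0563 and 0.239), nor with the libraries of CTO19 alone (0.119). Without CTO19 noEGF replicate 2 the log2 value of P4hb in CTO19 was -0.0612 in place of -0.119.

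Pdia4, an isomerase found with BiP and GRP94, was at 118 and 117 CPM in EM and 166 and 169 CPM in noEGF in apsMC706, and at 192 and 194 against 169 and 165 CPM in CTO19. Pdia4 was the only gene of the 13 whose lines, apart in EM (1.64-fold higher in CTO19, adjusted p = 2.03e-10), overlapped in noEGF. Pdia3 (ERp57), which works with calnexin and calreticulin, was at 871 and 853 CPM in EM and 1014 and 1016 CPM in noEGF in apsMC706, and at 763 and 777 against 706 and 685 CPM in CTO19. Its changes were small, a 1.18-fold rise and a 1.11-fold fall, and its libraries of the 2 media lay apart in both lines.

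The stress sensors and their effectors differed from most chaperones in their direction in CTO19. There 5 of 6 rose as in apsMC706, a pattern that 17.1% of all tested genes had, and none of the 6 was called lower. By the test of the difference, 4 of the 6 still had a lower response in CTO19, as most chaperones did, and 2 a higher one. Among all tested genes the shares were 25.6% lower and 30.4% higher. Their summed level in EM and noEGF was 290 ± 1.23 and 612 ± 12.5 CPM in apsMC706, and 210 ± 0.197 and 259 ± 9.97 CPM for CTO19 (SD, n = 2). Xbp1 (chr11:5520659-5525893), whose spliced mRNA encodes the transcription factor of the IRE1 arm, was at 107 and 107 CPM in EM and 308 and 305 CPM in noEGF in apsMC706. In CTO19 it was at 74.1 and 78.6 CPM in EM and 82.0 and 94.0 CPM in noEGF. The rise was 2.86-fold in apsMC706 (log2 fold change 1.52, SE 0.0548, adjusted p = 2.34e-11) and 1.15-fold in CTO19 (0.21, SE 0.0565, adjusted p = 0.00539), and the difference passed (-1.31, SE 0.0783, adjusted p = 1.08e-08). The call in CTO19 was lost without CTO19 EM replicate 1 or CTO19 noEGF replicate 2 (adjusted p 0.0734 and 0.0554), and without the latter the log2 value was 0.11 in place of 0.21.

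Atf6 (chr1:170704674-170867771), the sensor that is cut in the Golgi, was at 58.0 and 58.5 CPM in EM and 137 and 129 CPM in noEGF in apsMC706, and at 53.4 and 55.6 against 58.6 and 59.5 CPM in CTO19. It rose 2.28-fold in apsMC706 and 1.08-fold in CTO19, and the second call was lost without apsMC706 EM replicate 1, apsMC706 EM replicate 2, CTO19 EM replicate 1 or CTO19 noEGF replicate 2 (adjusted p 0.0638 to 0.149). It was also lost with no filter on low counts, with the DESeq2 Wald test and with the CTO19 libraries alone (0.107 to 0.119). Eif2ak3, which encodes PERK, was at 31.3 and 30.4 CPM in EM and 52.0 and 49.8 CPM in noEGF in apsMC706, and at 22.5 and 24.3 against 33.4 and 32.3 CPM in CTO19. PERK mRNA thus rose 1.65-fold and 1.40-fold, and its difference in response (-0.23, SE 0.0786, adjusted p = 0.021) was lost without apsMC706 EM replicate 2, apsMC706 noEGF replicate 1 or CTO19 EM replicate 2 (adjusted p 0.0793 to 0.101) and with the DESeq2 Wald test (0.0562). Ppp1r15a (GADD34), the phosphatase subunit that restores translation after PERK has acted, was at 15.1 and 17.1 CPM in EM and 35.0 and 35.6 CPM in noEGF in apsMC706, and at 19.2 and 17.0 against 27.7 and 25.8 CPM in CTO19. The rise of Ppp1r15a was 2.20-fold and 1.48-fold, and its noEGF libraries were above every EM library of both lines.

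Ern1, which encodes the widely expressed IRE1alpha, was the only gene of the 33 that rose in both lines with a higher response in CTO19. It was at 73.8 and 72.0 CPM in EM and 86.4 and 83.0 CPM in noEGF in apsMC706, and at 37.7 and 31.7 against 47.0 and 51.6 CPM in CTO19. All Ern1 libraries of CTO19 stayed below those of apsMC706. Its call in apsMC706 (1.16-fold, adjusted p = 0.0148) was lost without apsMC706 EM replicate 1, apsMC706 EM replicate 2 or apsMC706 noEGF replicate 1 (0.0567 to 0.109), and the call of the difference (0.29, SE 0.1, adjusted p = 0.0273) without 5 of the 8 libraries (0.058 to 0.276): both of apsMC706 in EM and replicate 2 of each other group. The difference was 0.17 without CTO19 EM replicate 2 and 0.14 without CTO19 noEGF replicate 2. The difference of Ern1 was also not called with DESeq2 size factors, upper-quartile factors or the DESeq2 Wald test (adjusted p 0.0674 to 0.0763).

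Ern2 encodes IRE1beta, the form of IRE1 found in the gut and airway epithelium and known from goblet cells. It was at 5.42 and 4.25 CPM in EM and 1.50 and 1.16 CPM in noEGF in apsMC706, and at 3.44 and 3.46 against 3.10 and 2.68 CPM in CTO19. Ern2 fell 3.63-fold in apsMC706 (log2 fold change -1.86, SE 0.183, adjusted p = 3.3e-07) and did not pass in CTO19, and the responses differed (1.60, SE 0.252, adjusted p = 6.89e-05). It had the widest ratio between replicates in apsMC706 (1.28 in EM and 1.29 in noEGF). Of 9 goblet and secretory markers, 8 were in the table and all 8 were above 3 counts in at least 1 library. Their summed level was 54.6 to 63.6 CPM in the 6 libraries other than CTO19 noEGF, where it was 212 and 258 CPM, mostly Fcgbp. Within apsMC706 these markers went both ways. The goblet regulator Atoh1 was at 3.57 and 3.68 CPM in EM and 0.273 and 0.132 CPM in noEGF, and Sytl2, Galnt12 and Zg16 were also lower in both noEGF libraries. Tff3 went from 5.48 and 5.77 to 19.4 and 17.1 CPM, Fcgbp from 5.24 and 4.93 to 9.55 and 7.66 CPM and Clca1 from 0.344 and 0.626 to 1.06 and 1.69 CPM, while the Spdef libraries of the 2 media overlapped. In CTO19 Atoh1 was at 0 to 2 counts. What part these cells had in the Ern2 levels was not tested.

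Genes of ER-associated degradation, which draw misfolded proteins out of the ER for the proteasome, were mixed: 7 of 9 rose and 1 fell in apsMC706, and 2 rose and 3 fell in CTO19. Called in either direction were thus 88.9% and 55.6% of the 9 genes, beside 67.2% and 68.0% of all tested genes. Sel1l and Syvn1, the adaptor and the ubiquitin ligase (HRD1) at the core of the machinery, rose in both lines. Sel1l was at 110 and 110 CPM in EM and 149 and 138 CPM in noEGF in apsMC706, and at 128 and 116 against 144 and 160 CPM in CTO19. Syvn1 was at 76.2 and 71.9 CPM in EM and 89.0 and 87.7 CPM in noEGF in apsMC706, and at 51.5 and 53.2 against 58.4 and 58.3 CPM in CTO19. The rises were 1.30-fold and 1.25-fold for Sel1l and 1.19-fold and 1.11-fold for Syvn1, and the libraries of the 2 media lay apart in both lines.

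The mannosidase-like EDEM proteins mark chains for removal, and only Edem1 of the 3 genes was called lower in both lines, as were 18.5% of all tested genes. Edem1 fell 1.17-fold in apsMC706 and 1.41-fold in CTO19: it was at 80.7 and 80.1 CPM in EM and 68.6 and 68.3 CPM in noEGF in apsMC706, and at 85.5 and 85.4 against 61.6 and 59.3 CPM in CTO19. Its log2 fold change in apsMC706 was -0.23, against -0.15 with upper-quartile scaling and -0.14 without either CTO19 noEGF library. Edem2 rose 1.75-fold in apsMC706, from 40.2 and 38.2 to 67.0 and 70.0 CPM, and its libraries overlapped in CTO19, with 35.2 and 38.0 CPM in EM against 37.0 and 39.2 CPM in noEGF. Edem3 rose 1.20-fold in apsMC706, from 47.0 and 45.6 to 54.4 and 56.3 CPM, and overlapped in CTO19, with 64.2 and 58.6 CPM in EM against 65.4 and 63.2 CPM in noEGF. The difference in response passed for Edem2 (-0.75, SE 0.0778, adjusted p = 1.23e-06), and that of Edem3 (-0.19, adjusted p = 0.0342) was lost without any 1 of the apsMC706 libraries or without CTO19 EM replicate 1 (0.0624 to 0.155), and with the DESeq2 Wald test (0.0561). The difference of Edem3 ranged from -0.13 without CTO19 EM replicate 1 to -0.31 without CTO19 noEGF replicate 1.

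Derlins sit in the ER membrane as part of the exit route. Derl1 was at 101 and 99.0 CPM in EM and 121 and 121 CPM in noEGF in apsMC706, and at 96.1 and 98.5 against 84.1 and 83.0 CPM in CTO19. It was the only degradation gene that rose in apsMC706 (1.21-fold) and fell in CTO19 (1.16-fold) like the chaperones. Derl2 was at 59.7 and 57.1 CPM in EM and 55.6 and 56.7 CPM in noEGF in apsMC706, and at 62.1 and 61.6 against 56.8 and 54.7 CPM in CTO19. Derl2 was called lower in CTO19 alone (1.11-fold, adjusted p = 0.00854), a call lost without CTO19 noEGF replicate 2 (0.0813) and with the DESeq2 Wald test (0.0797), and its difference between lines did not pass. Herpud1, a stress-induced partner of HRD1, was at 105 and 110 CPM in EM and 135 and 130 CPM in noEGF in apsMC706, and at 55.8 and 60.3 against 56.6 and 48.1 CPM in CTO19. Its 1.23-fold rise in apsMC706 was called, and its CTO19 libraries of the 2 media overlapped.

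Derl3 (chr10:75893413-75895941), the derlin with the most restricted expression, had the largest change of the group. It was at 1.06 and 1.17 CPM in EM and 8.21 and 8.40 CPM in noEGF in apsMC706, and at 0.347 and 0.365 CPM in EM and 0.323 and 0.224 CPM in noEGF in CTO19. The rise in apsMC706 was 7.43-fold (log2 fold change 2.89, SE 0.159, adjusted p = 4.99e-10), while each CTO19 library held only 9 to 13 counts and its media did not pass as different. The difference in response was -3.28 (SE 0.413, adjusted p = 8.2e-06), and the lines were 30.2-fold apart in noEGF. Derl3 is also known from plasma cells. Of 8 plasma and B cell markers, 6 were above 3 counts in at least 1 library. They summed to 0.436 to 0.556 CPM in EM and 0.898 to 1.06 CPM in noEGF in apsMC706, the direction of Derl3, and to 1.32 to 1.59 and 0.942 to 1.34 CPM in CTO19. Pou2af1 went from 10 and 9 to 21 and 19 counts in apsMC706, while Tnfrsf17, Ighm and Igkc had no count in any library of that line. The part of such cells in the Derl3 level was not tested.

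Translocon genes fell or did not pass in both lines. Ssr1, a subunit of the TRAP complex beside the channel, was at 340 and 347 CPM in EM and 295 and 292 CPM in noEGF in apsMC706, and at 313 and 315 against 174 and 169 CPM in CTO19. It fell 1.17-fold in apsMC706 (log2 -0.23, against -0.15 with upper-quartile scaling and -0.14 without either CTO19 noEGF library) and 1.83-fold in CTO19, and the second was the largest fall of the 33 genes in that line (log2 fold change -0.87, SE 0.0363, adjusted p = 5.49e-11). Sec61a1, the channel itself, was at 279 and 285 CPM in EM and 258 and 249 CPM in noEGF in apsMC706, and at 220 and 233 against 186 and 178 CPM in CTO19. Its fall in CTO19 was 1.25-fold. In apsMC706 it was 1.11-fold (adjusted p = 0.00391), a call lost with upper-quartile scaling (0.131), with no filter (0.0721), with DESeq2 (0.083) and without apsMC706 noEGF replicate 2 or either CTO19 noEGF library (0.0513 to 0.157). That value was -0.155 on the log2 scale, and it moved to -0.0763 with upper-quartile scaling, -0.0881 with no filter and -0.0622 without either CTO19 noEGF library. The difference between its responses (-0.16, adjusted p = 0.0277) was lost without any 1 apsMC706 library (0.054 to 0.158), and was -0.25 with no filter and -0.28 without CTO19 noEGF replicate 1. Sec61b, a small subunit of the channel, was at 58.5 and 58.2 CPM in EM and 54.2 and 54.2 CPM in noEGF in apsMC706, and at 43.2 and 49.4 against 36.2 and 39.4 CPM in CTO19. Sec61b fell 1.23-fold in CTO19 (log2 -0.29, or -0.19 without CTO19 EM replicate 2). Its difference in response (-0.19, adjusted p = 0.08) was called with DESeq2 size factors, upper-quartile scaling and no filter (adjusted p 0.00104 to 0.029). It was also called without CTO19 EM replicate 1 or either CTO19 noEGF library (0.00329 to 0.0412), and it was -0.33 without CTO19 noEGF replicate 2.

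**Figure D4:**
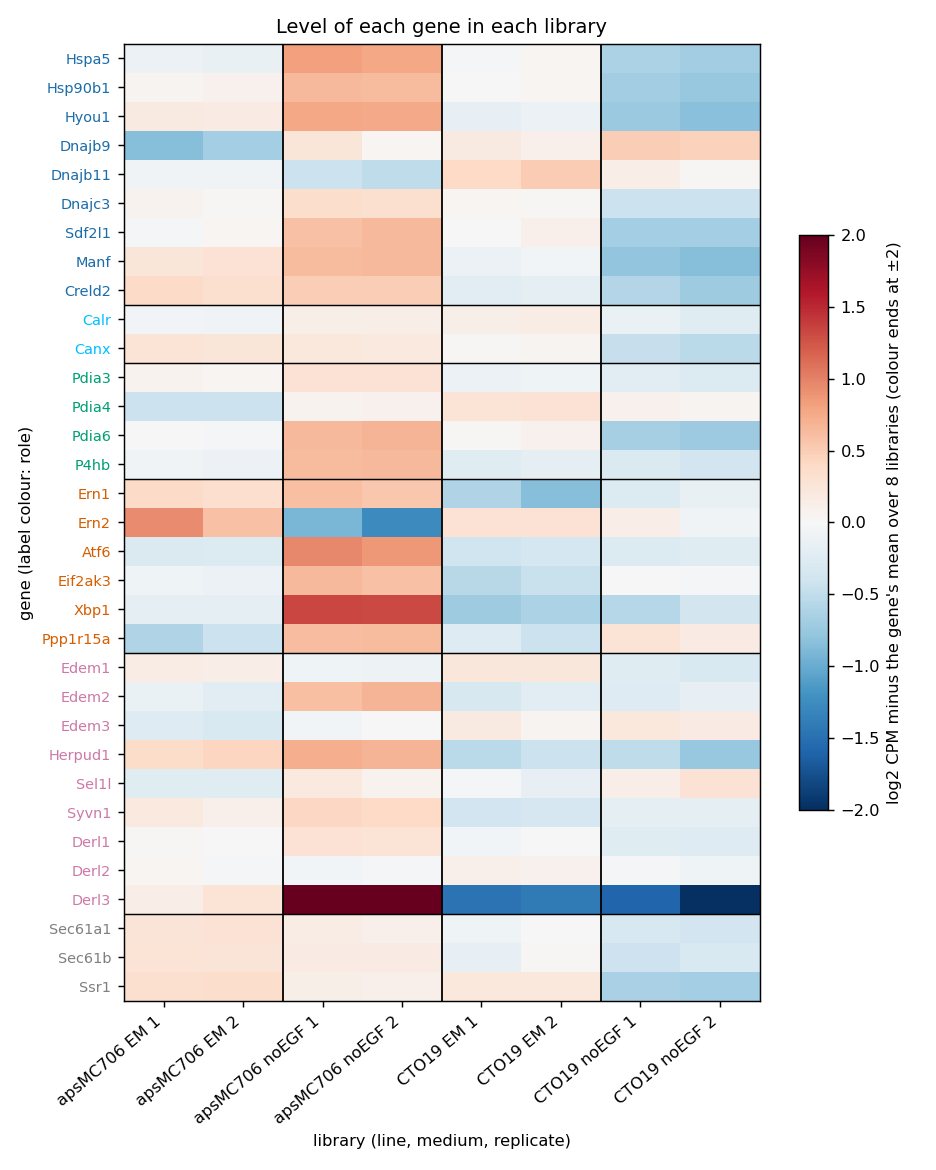
Level of each of the 33 genes in the 8 libraries as log2 of the CPM relative to the mean of that gene over all libraries, with genes in rows by role and libraries in columns by line and medium. Most chaperones and disulphide isomerases are highest in the noEGF libraries of apsMC706 and lowest in those of CTO19.

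Compared between lines, the group was closer in EM than in noEGF. In EM, CTO19 was higher than apsMC706 for 6 genes and lower for 16, 22 in all, where 71.3% of all tested genes were called, 37.5% higher and 33.8% lower. In noEGF it was higher for 4 (Dnajb9, Dnajb11, Ern2 and Edem3) and lower for 26, 30 in all, where 80.0% of all genes were called, 45.7% higher and 34.3% lower. The median line difference of the group was -0.10 in EM and -0.70 in noEGF, against 0.02 and 0.13 for all tested genes. Of the 13 genes with opposite responses, 3 were higher in CTO19, 5 lower and 5 not called in EM, and 12 were lower in noEGF, by up to 2.95-fold for Hyou1. Among the sensors, Ern1 was 2.10-fold and Xbp1 1.40-fold lower in CTO19 in EM, and Xbp1 was 3.48-fold lower in noEGF. The EM calls of Hspa5 (1.10-fold, lost without apsMC706 EM replicate 2, adjusted p = 0.0788), Ssr1 (without the same library, 0.0577), Ern2 (without apsMC706 EM replicate 1, 0.179, and with the DESeq2 Wald test, 0.0855) and P4hb (without either apsMC706 EM library or CTO19 EM replicate 1, 0.0547 to 0.146) rested on single libraries. So did that of Edem3 in noEGF (without CTO19 noEGF replicate 1, 0.146). Its log2 value of 0.21 was 0.0986 without that library and 0.12 to 0.13 with upper-quartile scaling, no filter or the noEGF libraries alone. That of Edem1 in noEGF (-0.18) was -0.28 with upper-quartile scaling and -0.30 without the same library, and that of Ern2 in EM (-0.49) was -0.30 without apsMC706 EM replicate 1.

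Levels between genes were compared per kilobase of exon. P4hb (286 CPM per kb, mean of the 8 libraries), Pdia3 (266) and Calr (249) were the highest, followed by Hsp90b1 (181), Hspa5 (178) and Canx (164). The next genes, Pdia6 and Pdia4, stood at 68.3 and 67.2 CPM per kb. The sensors Atf6 (8.26), Ern1 (7.39) and Eif2ak3 (5.73) were near the bottom, with Derl3 (1.26) and Ern2 (1.06) the lowest. The order changed by group. P4hb was the highest in apsMC706 noEGF (430 CPM per kb), Pdia3 in apsMC706 EM (275) and in CTO19 noEGF (222), and Calr in CTO19 EM (272). Derl3 was the lowest in 3 of the 4 groups, at 0.559, 0.179 and 0.137 CPM per kb in apsMC706 EM, CTO19 EM and CTO19 noEGF, where Ern2 was at 1.63, 1.16 and 0.975. Only in apsMC706 noEGF was Derl3 above Ern2, at 4.17 against 0.449 CPM per kb. Replicates of a group had median ratios of 1.02 to 1.04 over the 33 genes, and the largest ratio was 1.44, for Derl3 in CTO19 noEGF.

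Taken over both lines, the study's own pair of biological replicates, the share of the group that was called was near that of all genes. In the model with terms for line and medium, 16 of 33 genes were called, 10 higher and 6 lower, beside 48.8% of all tested genes, 25.5% higher and 23.3% lower. The 13 genes with opposite responses were not called there. Called higher were Xbp1 (1.82-fold, adjusted p = 0.027), Ppp1r15a (1.80-fold, 0.00172), Atf6 (1.58-fold), Dnajb9 (1.53-fold), Eif2ak3 (1.52-fold, 0.000526), Edem2, Ern1, Sel1l, Syvn1 and Derl3. Called lower were Ern2, Ssr1 (1.46-fold), Dnajb11 (1.31-fold), Edem1 (1.29-fold), Sec61a1 and Sec61b. The call of Derl3 rests on apsMC706, since its CTO19 libraries did not rise. By the edgeR tests within lines, Edem2 and Ern2 were also called in apsMC706 and not in CTO19 (adjusted p = 0.368 and 0.188). Sec61b was called in CTO19 and not in apsMC706 (0.127). With the 2 libraries of each group summed, so that the line is the unit of replication, no gene of the 33 was called (edgeR quasi-likelihood, 1 residual degree of freedom). At an unadjusted p under 0.05 that fit held 1 of the 33, Ppp1r15a, and 16.8% of all genes.

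Of these 16 calls, 8 held without each library in turn: Dnajb9, Dnajb11, Ern1, Eif2ak3, Ppp1r15a, Edem1, Sel1l and Syvn1. Those of Atf6 (adjusted p 0.0745 to 0.105), Xbp1 (0.0578 to 0.0854) and Derl3 (0.103 to 0.182) were lost without any 1 of the 4 apsMC706 libraries. So were those of Ern2 (0.0535 to 0.114), also lost without CTO19 noEGF replicate 2, and Edem2 (0.0626 to 0.13), also lost without CTO19 EM replicate 1. Sec61a1 (0.14 and 0.159) and Ssr1 (0.0749 and 0.0779) were lost without either CTO19 noEGF library, and Sec61b (0.063 to 0.346) without any of the 8. Without CTO19 noEGF replicate 2 the value of Sec61a1 went from -0.24 to -0.15 on the log2 scale, and without CTO19 noEGF replicate 1 that of Sec61b went from -0.20 to -0.0991. The count of called genes was 10 without apsMC706 EM replicate 1. With upper-quartile scaling the split was 11 higher and 4 lower.

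Other genes of ER folding and traffic, taken from lists by function, were higher in apsMC706 and lower in CTO19 in some lists and not in others. Of all tested genes, 34.1% were higher and 33.1% lower in apsMC706, and 34.7% higher and 33.3% lower in CTO19. Of 19 genes of ER to Golgi transport, 16 were higher and 1 lower in apsMC706, and none was higher and 13 were lower in CTO19. Of 12 oligosaccharyltransferase subunits, which attach sugar chains, 5 were higher and 3 lower in apsMC706 and 1 higher and 10 lower in CTO19. Of 22 targeting and translocation genes beside the members, the counts were 10 and 3 in apsMC706 and 3 and 13 in CTO19. In apsMC706 the share called in either direction was 66.7% for the oligosaccharyltransferase and 59.1% for targeting, not above the 67.2% of all genes. Of 28 tested genes of ER folding and oxidation, 15 were higher and 7 lower in apsMC706, and 7 higher and 14 lower in CTO19. Median log2 fold changes in these 4 lists were 0.38, 0.08, 0.08 and 0.17 in apsMC706 and -0.26, -0.23, -0.16 and -0.11 in CTO19. The difference between the responses passed with a lower response in CTO19 for 17, 9, 13 and 14 of these genes and with a higher one for 1, 1, 4 and 7. Among all tested genes the shares were 25.6% lower and 30.4% higher. The 20 other genes of ER-associated degradation had the same counts in both lines, 8 higher and 7 lower, but their responses differed for 10, with a lower response in CTO19 for 5 and a higher one for 5.

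Over both lines, where 48.8% of all tested genes were called, 14 of the 20 other degradation genes and 12 of the 28 folding genes were called, and 5 of 22, 1 of 12 and 1 of 19 in targeting, the oligosaccharyltransferase and ER to Golgi transport. Those of smallest p are named. In ER folding, the mucin-associated isomerase Agr2 rose 2.51-fold over both lines (adjusted p = 7.78e-05), with group means of 66.6 (EM) and 168 CPM (noEGF) in apsMC706 and 3.03 and 7.61 CPM for CTO19. Fkbp7 and Cnpy2 rose with it, and Tmx1 (1.31-fold), Dnajc10 (1.19-fold) and Selenof fell, 6 higher and 6 lower of 28 in all. In degradation, the lectins Erlec1 (1.84-fold) and Os9 (1.49-fold) and the ligase March6 (1.54-fold) rose and Nploc4 (1.45-fold), Ube2j2 and Selenos fell, 7 higher and 7 lower of 20. In targeting, Sec62 (1.39-fold), Srp14 and Sec11c rose and Srp9 and Tram2 fell (3 and 2 of 22). Sec11c was not called in apsMC706. The difference between the responses (CTO19 minus apsMC706, log2 scale) was 0.90 for Tram2 (edgeR quasi-likelihood, adjusted p = 6.31e-05) and 0.375 for Sec11c (0.000283). The subunit Ost4 and the coat protein Sec23b (1.28-fold) were the only genes of their 2 lists called, both lower. Responses also differed between lines for Erlec1, Nploc4 and Sec23b. They differed too for Cnpy2, Selenof, Sec62 and Srp9, where the call of the difference was lost without at least 1 library. Calls of Ost4, Nfyb, Sec11c, Tram2 and Selenos over both lines were lost without at least 1 library (adjusted p 0.0509 to 0.185). The libraries were each except CTO19 EM replicate 1 for Ost4, both CTO19 noEGF libraries for Selenos, and the 4 of apsMC706 and CTO19 EM replicate 1 for Tram2. For Sec11c they were apsMC706 EM replicate 2 and both of CTO19 in EM, and for Nfyb apsMC706 EM replicate 2, apsMC706 noEGF replicate 1, CTO19 EM replicate 2 and both of CTO19 in noEGF.

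In the list of stress sensing and the PERK arm, 10 of 20 genes were higher and 7 lower in apsMC706, and 8 higher and 5 lower in CTO19. Called in either direction were thus 85% and 65% of the list, beside 67.2% and 68.0% of all tested genes. The responses differed for 18 of the 20, lower in CTO19 for 10 and higher for 8, beside 56.0% of all genes. Over both lines the transmembrane transcription factors Creb3 (1.55-fold) and Creb3l1 (1.65-fold) and the ER calcium regulator Wfs1 (1.74-fold) rose, and Eif2s1, which encodes eIF2alpha (1.50-fold), and Nfyb fell, 5 higher and 2 lower in all. Creb3l1 was near 0 in CTO19, at 0.256 and 0.31 CPM (group means), and did not pass there.

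Mitochondrial chaperones were lower without EGF in both lines, and cytosolic ones were mixed in apsMC706. Among all tested genes, 34.1% were higher and 33.1% lower in apsMC706, and 34.7% higher and 33.3% lower in CTO19. Of 9 mitochondrial chaperones and proteases, none was higher and 7 were lower in apsMC706 and 8 in CTO19, with a summed level of 2840 ± 46.9 and 1884 ± 7.25 CPM for apsMC706 and 2172 ± 66.4 and 1380 ± 37.3 CPM in CTO19 (EM and noEGF, SD, n = 2). Hspd1, the mitochondrial Hsp60, fell 2.04-fold over both lines (log2 fold change -1.03, SE 0.063, adjusted p = 7.15e-05), and Hspe1 and Clpp fell with it. Of 16 cytosolic heat shock chaperones, 7 were higher and 8 lower in apsMC706 and 3 higher and 9 lower in CTO19. Hsph1 (2.54-fold), Hsp90aa1 (1.82-fold) and Chordc1 (1.71-fold) fell over both lines, and Hspa1a, Hspa1b and Cryab (2.04-fold) rose. The difference between the responses passed for 3 of the 9 mitochondrial genes, all with a lower response in CTO19, and for 10 of the 16 cytosolic genes, 5 in each direction. It passed for 56.0% of all tested genes.

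Markers and quality values that moved with the media or lines were measured beside these results. Of 10 epithelial markers, 10 were above 3 counts, summing to 3041 to 3920 CPM, but the intestinal factor Cdx1 was at 0 to 4 counts in every library and Cdx2 at 0.861 to 2.30 CPM in CTO19 against 9.23 to 10.3 CPM in apsMC706. Lgals4 was at 8.40 to 18.3 CPM in CTO19 and 186 to 405 CPM in apsMC706. The proliferation marker Mki67 stood at 951 and 960 CPM in EM and 294 and 295 CPM in noEGF for apsMC706, and at 860 and 677 against 481 and 452 CPM for CTO19. The 7 immune markers, all above 3 counts in at least 1 library, summed to 1.24 to 1.61 CPM in EM and 7.95 to 8.16 CPM in noEGF in apsMC706, mostly Cd68, and to 5.23 to 5.50 and 11.8 to 13.4 CPM in CTO19, mostly Cd68 and Csf1r. The general leukocyte marker Ptprc was at 0 to 5 counts in every library. The 7 fibroblast markers, 4 of them above 3 counts, were also higher in noEGF, at 3.99 to 4.08 and 7.72 to 8.90 CPM in apsMC706, mostly Col3a1, and 1.85 to 1.91 and 10.9 to 11.4 CPM in CTO19, with Dcn leading in noEGF. The 4 endothelial markers, 2 of them above 3 counts, summed to 0.191 to 1.77 CPM. The share of mitochondrially encoded genes was 2.94% to 3.68% in the EM libraries and 4.13% to 5.19% in the noEGF libraries. The part of these in the changes of the ER genes was not tested.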

How the data were processed

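Poly(A)-selected RNA of 8 libraries (2 lines by 2 media, 2 each) was analysed from the deposited table of raw counts per Ensembl gene. Per the labels' protocols, RNA was column-extracted and libraries were made with a kit that does not mark the strand and 8 cycles of amplification. Per the submitters' processing notes, reads were aligned with STAR 2.7.0a to mm10. What counted the reads, with which strand setting, annotation and filters, is not given in the sources used here, so reads of overlapping genes cannot be told apart. Exons of 9 members share bases with another gene of the table, at most 10.3% of the member's exon length (Hsp90b1 with 1810014B01Rik, 1234 against 215508 counts over all libraries). The partners of 3 members had counts near their own: Mis12 of Derl2 (16337 against 17188, 2.9% of exon length shared), Mrpl49 of Syvn1 (11997 against 20293, 1.9%), and Dcaf1 (29945, 4.1%) and Rbm15b (32023, 0.4%) of Manf (40047).

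Symbols, positions and exon lengths came from GENCODE M21 (GRCm38): 32680 of 32728 identifiers matched. Promoter windows came from RefSeq. In R 4.3.3 with edgeR 4.0.16, filterByExpr with the 4 groups kept 16719 genes (99.971% of counts), and levels (CPM) are counts scaled to 1e6 with TMM factors. A limit of 3 counts per library was 0.0745 to 0.0868 CPM and covers counting error only, since reads had no molecular identifiers. Quasi-likelihood F-tests (two-sided, robust) used a model of line and medium over both lines (5 residual degrees of freedom) and a model of the 4 group means, sharing the spread, for the rest (4 residual degrees of freedom). P-values were adjusted over 16719 genes by Benjamini-Hochberg with a threshold of 0.05.

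Simulated data held 50 changed genes per fold among 16719. At 1.25-fold the fits recovered 60% over both lines, 56% in apsMC706 and 28% of response differences. At 2-fold they recovered 98%, 84% and 74%. The simulation used the spread within the 4 groups (common coefficient of variation 4.27%) and left all other genes unchanged. For the fit over both lines it planted the same fold in each line. In the real counts that coefficient was 16.9% over both lines, and 56.0% of genes differed in response. The simulated shares thus do not measure recovery in the real counts. Alternatives were size factors of DESeq2, upper-quartile scaling, no filter, the Wald test of DESeq2 1.42.0, the replicate number as a block, summed libraries, the compared groups alone and each library left out. All 33 members are named. From other lists, up to 3 genes per direction of smallest p over both lines are named. The members and lists were chosen with earlier results of these data known.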

Additional observations from a re-analysis of the deposited data

Results flagged for a closer look

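In 28 of the 33 genes the response to EGF withdrawal differed between the lines by the test of the difference itself (edgeR quasi-likelihood, adjusted p under 0.05). Of all tested genes 56.0% passed it, 25.6% with a lower and 30.4% with a higher response in CTO19. Values are the response in CTO19 minus that in apsMC706, on the log2 scale. Among the luminal chaperones and partners they were -1.60 for Hspa5, -1.35 for Sdf2l1, -1.32 for Hsp90b1, -1.25 for Hyou1, -1.12 for Manf, -0.743 for Dnajc3, -0.597 for Creld2 and -0.569 for Dnajb9. Lectin chaperones had -0.512 (Calr) and -0.476 (Canx), and disulphide isomerases -1.43 (Pdia6), -0.854 (P4hb), -0.72 (Pdia4) and -0.382 (Pdia3). Sensors and effectors had -1.31 (Xbp1), -1.08 (Atf6), -0.574 (Ppp1r15a) and -0.232 (Eif2ak3), with 0.293 for Ern1 and 1.60 for Ern2 in the other direction. Degradation genes had -3.28 (Derl3), -0.747 (Edem2), -0.497 (Derl1), -0.453 (Herpud1), -0.267 (Edem1) and -0.193 (Edem3), and translocon genes -0.645 (Ssr1) and -0.163 (Sec61a1).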

How the results depend on the processing

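When libraries were summed within each line and medium, 0 members were called over both lines, and 1 (Ppp1r15a) had an unadjusted p under 0.05. That fit called 0 of all genes and held 2809 at the unadjusted level, with 1 residual degree of freedom. Every other setting left each count of called members within 1.5 times, apart from single libraries over both lines. Leaving out each library in turn gave 10 to 15 called members over both lines (10 without apsMC706 EM replicate 1), 28 to 31 in apsMC706, 24 to 29 in CTO19, 24 to 31 for the difference of the responses, 20 to 26 and 30 to 31 for the lines in EM and noEGF, and 12 to 14 with opposite responses. That last count and its alternatives were chosen after seeing the data, and a group left with 1 library was assumed to vary like the others. Pairing by replicate number was looked for in the replicate deviations. Their correlations across genes were -0.00825 to 0.0485, and 0.0199 to 0.175 over genes of log2 CPM of at least 3, where 1 of 6 pairs of groups was over 0.1. Such correlations cannot exclude that libraries of equal number were handled together. With the replicate number as a block, 11 members were called over both lines in place of 16 (Ern2, Atf6, Edem2, Derl3 and Sec61b were lost) and 6988 genes in place of 8157, and the other member counts stayed at 30, 28, 28, 22 and 30. Recomputed values were counted only for results with an adjusted p under 0.1 in the main fit. Results further from a call, whose direction is the least certain, were left out. Of the 2239 member values counted, 2096 kept their direction and side of the threshold, 120 lost a call and 23 gained one, and none turned. Of 1772 for the other named genes, limited in the same way, 122 lost a call and 17 gained one. Levels near the 3-count limit, such as Derl3 in CTO19, carry few counts.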

Other observations

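Genes outside the naming rule, chosen after their values were seen, had large differences between the responses of the lines (CTO19 minus apsMC706, log2 scale), given here with no test. All were picked with a lower response in CTO19. In the list of stress sensing and the PERK arm 8 of 20 genes had a higher response in CTO19, by up to 1.71, and 10 a lower one, and in ER to Golgi transport 1 of 19 had a higher and 17 a lower one. In the PERK arm, the transcription factor Atf3 was at 5.69 and 28.1 CPM in apsMC706 (EM and noEGF, group means) and at 7.85 and 9.80 CPM in CTO19, a difference of -1.98 (SE 0.12). Ddit3, which encodes CHOP, was at 5.53 and 13.1 CPM in apsMC706 and at 6.38 and 6.23 CPM in CTO19 (-1.27, SE 0.134). Trib3, a target of CHOP, was at 43.0 and 84.5 CPM in apsMC706 and at 6.73 and 3.12 CPM in CTO19 (-2.08, SE 0.138).

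In ER to Golgi transport, Kdelr3, a receptor that returns escaped ER chaperones, was at 11.4 and 32.8 CPM in apsMC706 and at 8.44 and 6.15 CPM in CTO19 (-1.98, SE 0.106). Sec24d, a cargo adaptor of the COPII coat, was at 66.8 and 99.1 CPM in apsMC706 and at 64.7 and 31.0 CPM in CTO19 (-1.63, SE 0.0681).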
